A study of Mus musculus with 15 samples.

Results

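The genes described here are Lypd6, 3 further Ly6 prototoxin genes (Lypd6b, Lypd1, and Lynx1), and 5 neuronal nicotinic acetylcholine receptor subunit genes (Chrna3, Chrna4, Chrna5, Chrna7, and Chrnb2). They are 9 of the 19475 genes in the deposited expression table, which was searched by Ensembl identifier, and all 9 were found. Lypd6 was chosen by its lower level in the mutants among these same embryos. Its differences between genotypes are therefore given as a description, without a test, and only its variation within genotypes was tested. The other 8 were listed because they belong to the same families. All 9 genes had a mean above the filter on low values.

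The RNA-Seq data came from the brains of 15 mouse embryos at E16.5, all on the C57BL/6J background. There were 5 wild-type (WT) embryos, 5 embryos with a single copy of the K228E amino acid substitution in the transcription factor TBR1 (Tbr1 +/K228E), and 5 embryos in which both copies carry it (Tbr1 K228E/K228E). Females numbered 3 and males 2 in every genotype. The substitution was knocked into exon 1 of Tbr1, and the selection cassette next to it was removed by a cross with protamine-Cre mice, which express Cre in the male germ line. The mutation was therefore present in all cells that express Tbr1, and neither a conditional nor a null Tbr1 line was part of these data. The tissue is called forebrain where the study describes its results, brain in its methods, and whole brain in the deposited record. Because it is bulk tissue, fewer cells of a type and less RNA per cell cannot be told apart. The labels do not name litters, so the p-values measure the spread between these embryos. Values are normalized read counts, which the authors obtained by dividing estimated counts by a size factor for each embryo. Their sums ranged from 30535909 to 31768508 per embryo, and the step between the lowest values placed the sequencing depth at about 26.3 to 38.2 M reads (M, megareads).

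Nicotinic acetylcholine receptors are ion channels built of several subunits around a pore, which opens when acetylcholine binds. In the brain, α4 and β2 subunits make up the most widespread heteromeric type, α7 forms homomeric channels, and α3 and α5 join receptors that are abundant in the habenula and in autonomic ganglia. Ly6 prototoxins are small proteins with the three-finger fold of snake neurotoxins, anchored to the membrane or secreted, which bind nicotinic receptors and change their assembly or response. LYPD6 is also known to bind the Wnt coreceptor LRP6.

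The label check came first. Tbr1, the mutated gene, had a normalized read count of 3537 ± 1049 (SD, n = 5) in WT, 6269 ± 1532 in Tbr1 +/K228E, and 11370 ± 3160 in Tbr1 K228E/K228E mice. Every Tbr1 K228E/K228E embryo lay above every WT embryo (log2 fold change 1.69, adjusted p = 0.00437, limma, Benjamini–Hochberg adjusted). The difference of 0.85 between Tbr1 +/K228E and WT mice did not pass (adjusted p = 0.999, same fit in limma). Tbr1 levels thus ran in the order of the number of mutant copies in the labels, while the ranges of neighboring genotypes overlapped.

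Some embryos stood apart in the tissue they contained. The summed normalized count of 18 Hox genes, which mark the hindbrain and spinal cord, was 3967 in Tbr1 +/K228E embryo 1 and 3287 in WT embryo 4, against a median of 15.1 over the 15 embryos. It was also above the median in WT embryos 1 and 2 (1154 and 396) and in Tbr1 K228E/K228E embryos 1, 2, and 4 (577, 260, and 59.7), and it lay between 4.87 and 15.1 in the other 8. Sums above the median were thus found in 3 of 5 WT, 1 of 5 Tbr1 +/K228E, and 3 of 5 Tbr1 K228E/K228E embryos. The Hox gene with the highest mean count was Hoxb3, with values from 0 to 702. Tbr1 +/K228E embryo 2, which had the lowest Hox sum, had 50.3 for Pou4f1 and 69.8 for Irx2, transcription factor genes of the habenula list, where the medians over all embryos were 610 and 724. The other 5 genes of that list did not share a drop of this size. In the same embryo Tac1 had 425 (median 543), Nhlh2 650 (857), Gpr151 32.6 (46.5), and Gng8 23.7 (24.3), and Tac2 was the highest of all 15 embryos with 43.0 (30.9). Another 3 embryos held few transcripts of meningeal cells, which form the coverings of the brain. The summed count of the meninges markers was 472 in WT embryo 3, 825 in Tbr1 K228E/K228E embryo 3, and 650 in Tbr1 K228E/K228E embryo 4, and between 4416 and 33340 in the other 12. Col1a1, a collagen gene of that list, had at most 23.4 in these 3 embryos and 10910 in WT embryo 1. Dcn and Lum were higher in Tbr1 K228E/K228E embryo 3 (304 and 98.2) than in Tbr1 +/K228E embryo 4 (297 and 86.8). The other meninges markers were lower in these 3 embryos than in all others. Ttr, a choroid plexus gene, was lowest in Tbr1 K228E/K228E embryo 4 (29.2), while Tbr1 K228E/K228E embryo 3 (4845) was above WT embryo 4 (2361). Markers of deep-layer glutamatergic neurons were present throughout. Neurod6, a transcription factor gene of cortical pyramidal neurons, ranged from 3502 in WT embryo 4 to 11280 in Tbr1 +/K228E embryo 2. No difference between genotypes passed for the 9 marker lists (27 two-sided exact permutation tests of the mean log2 value, lowest p = 0.198, lowest Benjamini–Hochberg adjusted p = 0.857, where 5 against 5 embryos can reach 0.00794).

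Lypd6 (ENSMUSG00000050447) lies on the plus strand of chromosome 2 in GRCm38, at chr2:50066429-50193569. Its normalized read counts were 543, 613, 644, 584, and 543 in the 5 WT embryos. The 5 Tbr1 +/K228E embryos had 470, 508, 480, 484, and 446. The 5 Tbr1 K228E/K228E embryos had 389, 398, 487, 385, and 430. All 10 mutant embryos were below the lowest WT embryo, whereas the mutant genotypes overlapped through Tbr1 K228E/K228E embryo 3, which exceeded all Tbr1 +/K228E embryos except embryo 2.

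The Lypd6 means were 585 ± 44.2 (SD, n = 5) in WT, 477 ± 22.6 in Tbr1 +/K228E, and 418 ± 42.4 in Tbr1 K228E/K228E mice, or 81.6% and 71.4% of the WT mean in the mutants. The log2 fold change was −0.49 for Tbr1 K228E/K228E against WT, −0.29 for Tbr1 +/K228E against WT, and −0.20 for Tbr1 K228E/K228E against Tbr1 +/K228E, each with a standard error of 0.074. The Tbr1 +/K228E mean lay below the midpoint between the WT and Tbr1 K228E/K228E means, which was 501. Without Tbr1 +/K228E embryo 1 and WT embryo 4, which had the highest Hox sums, the first of these 3 values was −0.49 and the second −0.29. WT embryo 3 and Tbr1 K228E/K228E embryo 3, which had few meningeal transcripts, were the highest in Lypd6 of their genotypes, and Tbr1 K228E/K228E embryo 4 the lowest. Without these 3 embryos the values were −0.49, −0.26, and −0.24, and with the Hox and meninges scores as covariates −0.52, −0.29, and −0.22. Of all 16507 genes tested, the share without overlap was 0.594% for Tbr1 K228E/K228E against WT, 0.26% for Tbr1 +/K228E against WT, and 0.878% between the mutant genotypes. Lypd6 was in the first 2 of these groups by the choice described above.

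**Figure D1:**
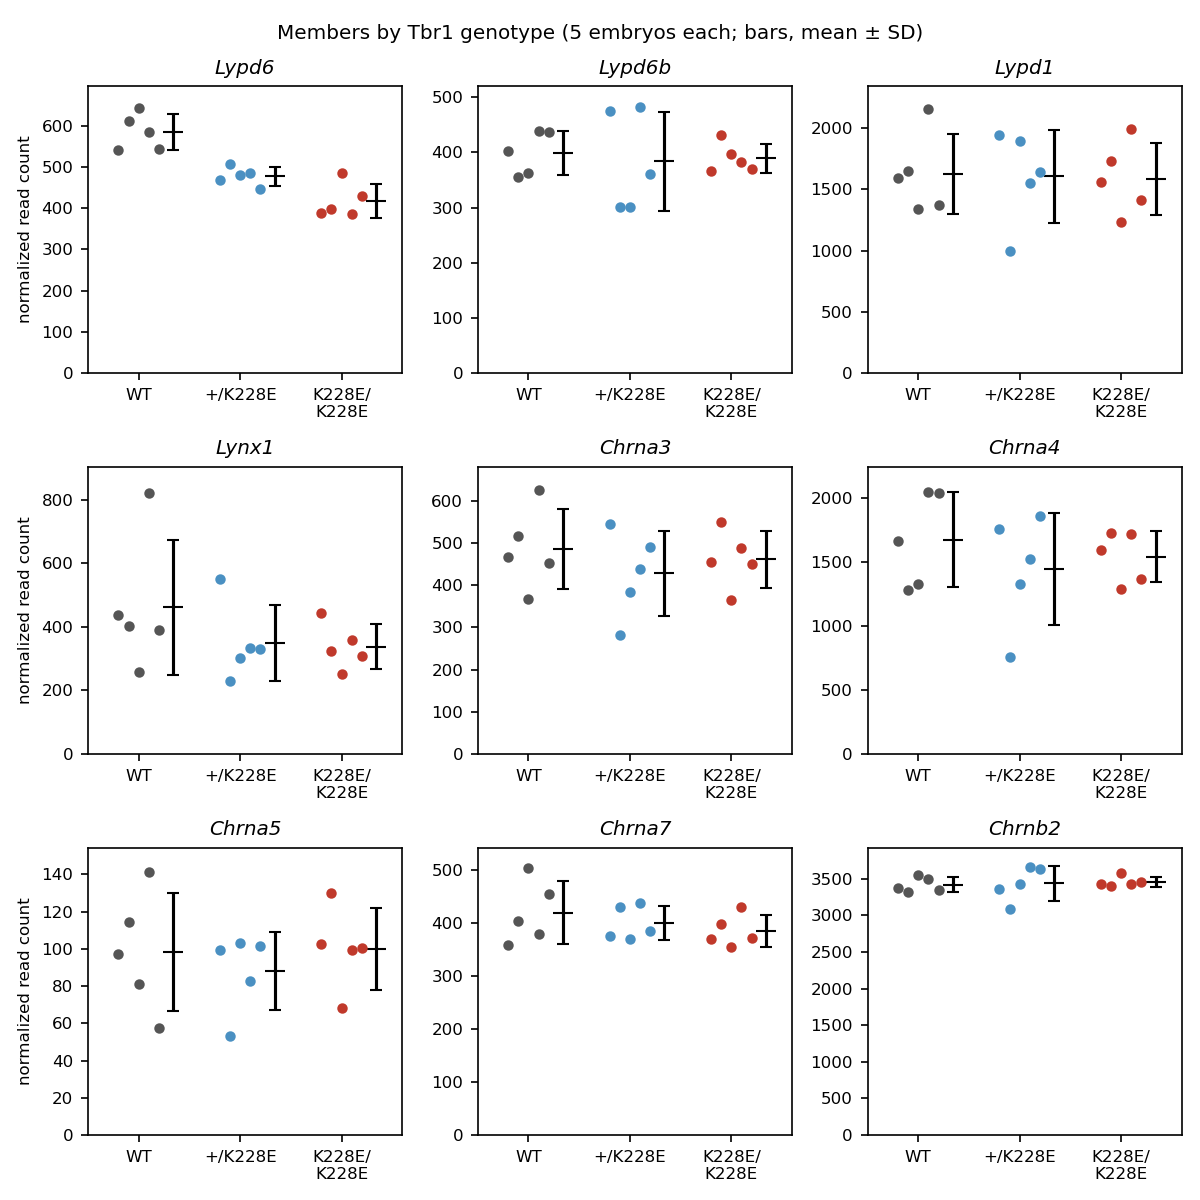
Normalized read count (y axes, from 0) of the 9 genes in 5 embryos of each genotype (points in the order of the embryo numbers), with the mean and SD of each genotype as bars. In the Lypd6 panel all 10 mutant embryos sit below the lowest WT embryo at 543, whereas the genotypes overlap in the other 8 panels.

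The sequence before the start of Lypd6 is shown because TBR1 is a T-box transcription factor that binds DNA directly. It is taken from RefSeq on GRCm38.p6 at chr2:50066179-50066428 (plus strand, 250 bases, 5′ to 3′). Capitals mark matches to the CCAAT box, read as ATTGG on the opposite strand, and to the GC box, whose letters are GGGCGG and on the opposite strand CCGCCC.
Lypd6 promoter: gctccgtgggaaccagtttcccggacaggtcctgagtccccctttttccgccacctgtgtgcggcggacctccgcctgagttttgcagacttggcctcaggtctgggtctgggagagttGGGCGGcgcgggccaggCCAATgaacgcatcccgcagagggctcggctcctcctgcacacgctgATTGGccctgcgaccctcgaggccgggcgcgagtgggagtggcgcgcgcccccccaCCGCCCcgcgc
The window held 2 CCAAT matches, 114 and 67 bases before the start, and 2 GC box matches, 131 and 11 bases before it. It had no match to the T-box half-site, searched as GGTGTGA and on the opposite strand as TCACACC, and none to the TATA box, searched as TATAAA and as TTTATA. Among 32851 mouse promoter windows of the same length, 33.9% held the CCAAT box, 32.7% the GC box, 12.4% the TATA box, and 3.33% the T-box half-site. The GC content was 70.4% for Lypd6 against a median of 52.4%. A match to these letters describes the sequence and does not show binding.

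Of the 9 genes, 7 had a promoter window in the RefSeq table, and 1 of these, Chrna7, held the T-box half-site. The stretch of 100 bases around it is shown from chr7:63212677-63212776 of GRCm38.p6 (minus strand, 5′ to 3′), with the half-site in capitals 209 bases before the start.
Chrna7 promoter stretch: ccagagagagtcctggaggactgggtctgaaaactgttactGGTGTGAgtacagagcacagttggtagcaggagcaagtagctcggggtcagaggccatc
The expression values of Chrna7 are given below among the subunit genes.

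The nearest related gene is Lypd6b, which ends 118 kb before the start of Lypd6 on the same strand (chr2:49787688-49948849). Its protein is a prototoxin that acts on nicotinic receptors. The Lypd6b counts were 402, 356, 362, 440, and 437 in WT embryos, 475, 300, 301, 482, and 361 in Tbr1 +/K228E embryos, and 366, 431, 397, 383, and 370 in Tbr1 K228E/K228E embryos. The 3 genotypes overlapped throughout, and the lowest and highest values were both among Tbr1 +/K228E embryos. The log2 fold change was −0.033 for Tbr1 K228E/K228E against WT (95% confidence interval −0.31 to 0.24) and −0.083 for Tbr1 +/K228E against WT (−0.36 to 0.19). The first of these became 0.001 with quantile normalization, so no direction can be given.

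The other tested genes within 1 Mb of Lypd6 were Mbd5, Gm13509, Epc2, and Kif5c before it and Mmadhc and Rnd3 after it. Kif5c, a neuronal kinesin motor gene, had the highest mean count of them, with 27860 ± 2662 in WT and 28120 ± 1080 in Tbr1 K228E/K228E mice. None of these 6 genes or Lypd6b was called in any comparison or reached an unadjusted p of 0.05 (limma). For Tbr1 K228E/K228E against WT their log2 fold changes spanned −0.033 to 0.018, and for Tbr1 +/K228E against WT −0.083 to 0.19. The value of 0.19 belonged to Gm13509, which had the lowest count of the 7 (23.5 ± 7.20 in WT) and a standard error of 0.36. Tbr1 itself lies 11.6 Mb from Lypd6 on the same chromosome.

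**Figure D2:**
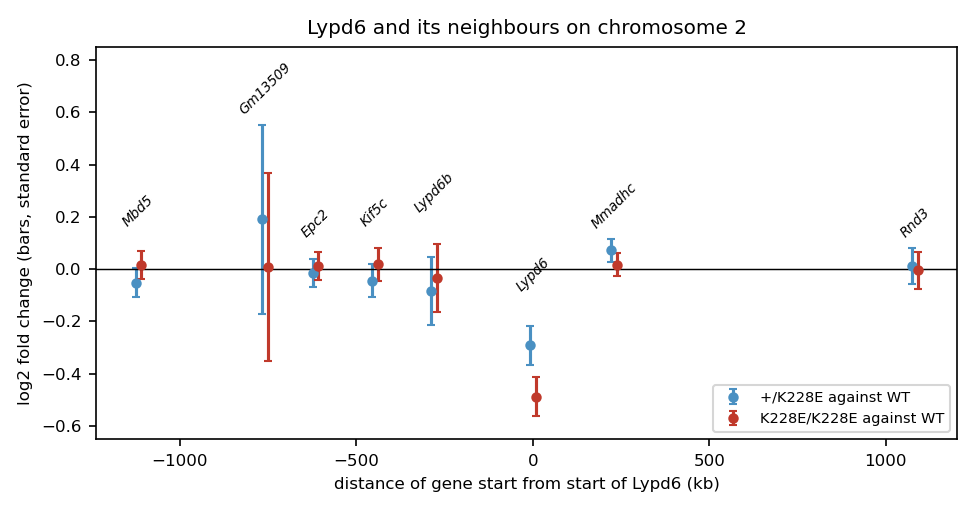
Log2 fold change against WT (y axis, bars are standard errors of the fit) of Lypd6 and the 7 tested genes within 1 Mb of it, plotted at the distance of each gene's start from the start of Lypd6 in kb (x axis), for Tbr1 +/K228E and Tbr1 K228E/K228E mice. Lypd6 sits at −0.29 and −0.49, and the Tbr1 K228E/K228E values of the 7 neighbors lie between −0.033 and 0.018.

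The remaining prototoxin genes were Lypd1 (chr1:125867622-125913101, minus strand) and Lynx1 (chr15:74747852-74753046, minus strand), whose proteins are known to restrain nicotinic receptors. Lypd1 counts in WT embryos were 1595, 1648, 1343, 2153, and 1375. In Tbr1 +/K228E embryos they were 1942, 996, 1895, 1551, and 1644, and in Tbr1 K228E/K228E embryos 1557, 1730, 1237, 1993, and 1410. The genotype means of Lypd1 (1623 ± 325, 1605 ± 379, and 1585 ± 292) differed by much less than the spread within any genotype. Lypd1 shares 1202 exon bases with Gpr39 on the opposite strand, and the library kit does not mark strand, so reads in that stretch could not be assigned with certainty.

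Lynx1 counts were 436, 404, 257, 823, and 390 in WT embryos. They were 551, 231, 301, 332, and 332 in Tbr1 +/K228E embryos and 445, 324, 252, 360, and 310 in Tbr1 K228E/K228E embryos. A single WT embryo, number 4, stood far above the other 14, and Tbr1 +/K228E embryo 1 was the next highest. These were the embryos with the highest Hox sums. The Lynx1 log2 fold change was −0.37 for Tbr1 K228E/K228E against WT (95% confidence interval −0.94 to 0.20, adjusted p = 1, limma, Benjamini–Hochberg adjusted), and without those 2 embryos it was −0.13. For Tbr1 +/K228E against WT it was −0.36, and −0.30 without both of them, but −0.12 without WT embryo 4 alone and −0.54 without Tbr1 +/K228E embryo 1 alone or WT embryo 3 alone. Leaving out WT embryo 3 likewise moved the value for Tbr1 K228E/K228E mice to −0.55. The Lynx1 differences were therefore within the spread between embryos. The coefficient of variation in WT embryos was 46.1% for Lynx1 and 7.56% for Lypd6.

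Among the subunit genes, Chrna4 (chr2:181018380-181043546, minus strand) encodes the α4 subunit. Its counts were 1665, 1280, 1325, 2048, and 2035 in WT embryos. In Tbr1 +/K228E embryos they were 1754, 757, 1325, 1525, and 1854, and in Tbr1 K228E/K228E embryos 1595, 1724, 1291, 1718, and 1366. Only Tbr1 +/K228E embryo 2, the embryo with low Pou4f1 and Irx2, lay below 1280. The Chrna4 log2 fold change was −0.10 for Tbr1 K228E/K228E and −0.25 for Tbr1 +/K228E against WT (standard error 0.21). Without Tbr1 +/K228E embryo 2 the second value was −0.032, and the first lay between −0.19 and −0.019 when any WT or Tbr1 K228E/K228E embryo was left out.

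Chrnb2 (chr3:89746195-89764632, minus strand), which encodes the β2 partner of α4, varied least of the 9 genes. Its 15 values lay between 3092 and 3668, a ratio of 1.19, whereas the ratio of the highest to the lowest embryo was 1.67 for Lypd6, 2.71 for Chrna4, and 3.57 for Lynx1. Chrnb2 means were 3420 ± 99.4 in WT, 3436 ± 234 in Tbr1 +/K228E, and 3461 ± 70.4 among Tbr1 K228E/K228E embryos. The log2 fold change for Tbr1 K228E/K228E against WT was 0.017, with a 95% confidence interval from −0.074 to 0.11, the narrowest of the 9 genes. Chrnb2 shares 1365 exon bases with Adar on the opposite strand, with the same uncertainty as for Lypd1.

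Chrna7 (chr7:63098692-63212569, minus strand), the α7 gene with the half-site shown above, had counts of 358, 404, 503, 378, and 454 in WT embryos. The values were 376, 430, 370, 438, and 384 in Tbr1 +/K228E embryos and 370, 399, 354, 431, and 371 in Tbr1 K228E/K228E embryos. The genotypes overlapped, with log2 fold changes of −0.12 (95% confidence interval −0.32 to 0.083) and −0.062 (−0.26 to 0.14) against WT for Tbr1 K228E/K228E and Tbr1 +/K228E mice. Without WT embryo 3, the highest of the 15, these values were −0.047 and 0.006.

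Chrna5 and Chrna3 are adjacent on chromosome 9, 2.33 kb apart on opposite strands (chr9:54980880-55007779 and chr9:55010111-55026562), and encode the α5 and α3 subunits. Chrna3 means were 485 ± 94.4 in WT, 428 ± 102 in Tbr1 +/K228E, and 461 ± 67.5 in Tbr1 K228E/K228E mice, over a range of 281 to 624. Chrna5 was the lowest of the 9 genes, with means of 98.3 ± 31.8, 88.1 ± 21.2, and 100 ± 22.0 in the same order. Both genes had their lowest embryo in Tbr1 +/K228E embryo 2 and their highest in WT embryo 4. The sign of the small Chrna3 difference between Tbr1 K228E/K228E and WT mice (−0.065) turned to 0.03 without the 2 embryos with the highest Hox sums, so no direction can be given. The value for Tbr1 +/K228E against WT was −0.20, and −0.055 without Tbr1 +/K228E embryo 2.

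Over the whole table, 21 of 16507 genes (0.127%) passed an adjusted p of 0.05 between Tbr1 K228E/K228E and WT mice, 0 (0%) between Tbr1 +/K228E and WT mice, and 13 (0.0788%) between the mutant genotypes (limma, Benjamini–Hochberg adjusted). At an unadjusted p under 0.05 these counts were 534, 295, and 544. Without the 3 embryos with few meningeal transcripts, 7, 0, and 0 genes passed, and 415, 595, and 492 had an unadjusted p under 0.05 (limma). Of the 8 genes other than Lypd6, 0 passed in any comparison, 0 had an unadjusted p under 0.05, and 0 had genotypes that did not overlap. Their median log2 fold change was −0.049 for Tbr1 K228E/K228E against WT (2 higher and 6 lower), −0.11 for Tbr1 +/K228E against WT (1 higher and 7 lower), and 0.031 between the mutant genotypes (6 higher and 2 lower). Without the 2 embryos with the highest Hox sums the first of these medians was 0.014 (5 above and 3 below WT), as it was without WT embryo 4 alone, and it was −0.017 (4 above and 4 below) without Tbr1 K228E/K228E embryo 3. Without Tbr1 +/K228E embryo 2 the second was −0.018 (3 above and 5 below WT) and the third −0.028 (1 higher and 7 lower). The medians over all tested genes were −0.002, −0.002, and 0. With so few genes passing anywhere, these counts are near the background.

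**Figure D3:**
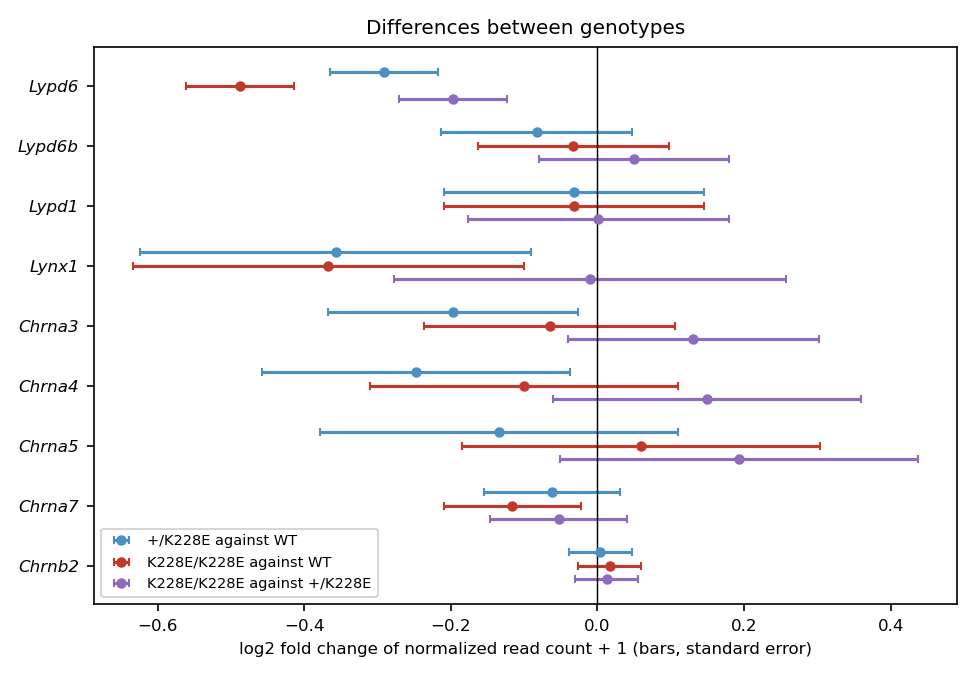
Log2 fold change of the 9 genes (x axis, bars are standard errors of the fit over 15 embryos) for the 3 comparisons between genotypes, marked by color. Lypd6 lies at −0.49, −0.29, and −0.20, Chrnb2 has the shortest bars, with values between 0.004 and 0.017, and the Lynx1 and Chrna5 bars are the longest.

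Levels of different genes can be compared only per length. In WT embryos, normalized counts per kb of exon were 408 for Chrnb2, 333 for Chrna4, 231 for Lypd1, 157 for Lypd6, 153 for Lypd6b, 99.1 for Lynx1, 93.1 for Chrna7, 92.2 for Chrna3, and 31.4 for Chrna5. Neighbors in this order overlapped between embryos except at 2 places, from Lypd1 to Lypd6 and from Chrna3 to Chrna5. Lypd6 at 157 ± 11.9 per kb was thus in the middle of the order in WT embryos, and at 112 ± 11.4 per kb in Tbr1 K228E/K228E embryos its mean was below the mean of Lypd6b (150 per kb).

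The other nicotinic subunit genes were at low levels. Of 8 found in the table, 6 were tested and 0 passed in any comparison (limma, Benjamini–Hochberg adjusted). Chrna9, Chrnd, and Chrng were not analysed here. Over the 15 embryos the highest mean count (62.4) was that of Chrnb4, the β4 gene, with 60.7 ± 14.6 in WT, 56.9 ± 16.1 in Tbr1 +/K228E, and 69.5 ± 17.8 in Tbr1 K228E/K228E mice. Per kb of exon in WT embryos, Chrna6 (22.7) and Chrnb1 (22.4) were above Chrnb4 (16.3). Chrna1, which encodes the α1 subunit of the muscle receptor, had 19.4 ± 3.51 in WT, 27.9 ± 4.09 in Tbr1 +/K228E, and 29.2 ± 7.88 among Tbr1 K228E/K228E embryos. Its log2 fold changes of 0.53 and 0.51 for Tbr1 K228E/K228E and Tbr1 +/K228E mice against WT did not pass correction (unadjusted p = 0.0273 and 0.0337, adjusted p = 1 and 0.999, limma), and its genotypes overlapped. The mean log2 value of 9 skeletal muscle markers was 3.19 in WT, 3.18 in Tbr1 +/K228E, and 3.04 in Tbr1 K228E/K228E mice.

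Among the other Ly6 family genes, 18 were found and 13 tested, and 0 passed in any comparison (limma, Benjamini–Hochberg adjusted). Ly6h, a brain-enriched prototoxin gene, had the highest mean count, between 5017 and 6133 over the 15 embryos, with means of 5536 ± 472 in WT and 5714 ± 220 in Tbr1 K228E/K228E mice. The smallest unadjusted p was that of Ly6g6e, which had 24.0 ± 8.01 in Tbr1 K228E/K228E and 48.9 ± 12.3 in Tbr1 +/K228E mice (log2 fold change −1.02, unadjusted p = 0.0436, adjusted p = 0.996, limma). Ly6g6d followed, with 9.75 ± 3.67 in Tbr1 K228E/K228E and 5.86 ± 2.15 in WT mice (adjusted p = 1, limma).

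The genes for assembly of nicotinic receptors had small median differences between genotypes. All 7 were tested and 0 passed (limma, Benjamini–Hochberg adjusted). Against WT, their median log2 fold change was 0 for Tbr1 K228E/K228E (3 higher and 4 lower) and −0.044 for Tbr1 +/K228E mice (2 higher and 5 lower). The largest single difference was that of Vsnl1, with −0.214 for Tbr1 +/K228E against WT (95% confidence interval −0.695 to 0.266). Its counts ranged from 1150 to 3279. Ric3, a chaperone of nicotinic receptors, had 1620 ± 95.3 in WT, 1522 ± 130 in Tbr1 +/K228E, and 1632 ± 168 in Tbr1 K228E/K228E mice. Tmem35a, which encodes the α7 chaperone NACHO, had 2998 ± 168 in WT and 3140 ± 90.9 in Tbr1 +/K228E mice. The highest mean count was that of Ywhah, a 14-3-3 protein gene, with 10260 ± 1323 in WT and 10290 ± 318 in Tbr1 K228E/K228E mice.

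On the side of the ligand, 6 of 7 genes for acetylcholine synthesis, transport, and breakdown were tested, and 0 passed in any comparison (limma, Benjamini–Hochberg adjusted). All 6 had values below WT in both mutants, with medians of −0.16 for Tbr1 K228E/K228E and −0.23 for Tbr1 +/K228E mice on the log2 scale. Both comparisons share the WT embryos. Without the 2 embryos with the highest Hox sums, 3 of the 6 lay above WT and 3 below among Tbr1 K228E/K228E embryos (median 0.008), and the same holds without WT embryo 4 alone. For Tbr1 +/K228E mice, leaving out WT embryo 4 alone placed Chat (0.048) and Slc18a3 (0.069) above WT and the median at −0.07, whereas without Tbr1 +/K228E embryo 1 alone all 6 were below WT, with a median of −0.36. No direction can therefore be given for the group in either comparison. Slc5a7, which encodes the high-affinity choline transporter, had the smallest unadjusted p (0.0615, adjusted p = 0.999, limma), with 203 ± 78.5 in WT, 139 ± 66.8 in Tbr1 +/K228E, and 139 ± 34.0 in Tbr1 K228E/K228E mice. Its highest values were 334 in WT embryo 4 and 256 in Tbr1 +/K228E embryo 1, the embryos with the highest Hox sums. The Slc5a7 log2 fold changes against WT were −0.50 in Tbr1 K228E/K228E and −0.57 in Tbr1 +/K228E mice, and −0.30 and −0.62 without those 2 embryos. The second value was −0.37 without WT embryo 4 alone and −0.82 without Tbr1 +/K228E embryo 1 alone. Ache, the acetylcholinesterase gene, with the highest mean count of the group, ranged from 619 in Tbr1 +/K228E embryo 2 to 1618 in WT embryo 4, and Bche, for butyrylcholinesterase, had 128 ± 36.6 in WT and 98.7 ± 32.9 in Tbr1 K228E/K228E mice.

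All 5 muscarinic receptor genes, which encode the G protein-coupled acetylcholine receptors, were tested and 0 passed (limma, Benjamini–Hochberg adjusted). Chrm5 had 34.7 ± 7.90 in Tbr1 K228E/K228E, 21.5 ± 1.80 in Tbr1 +/K228E, and 25.0 ± 9.28 in WT mice. The mutant genotypes did not overlap for Chrm5 (log2 fold change 0.64, unadjusted p = 0.0156, adjusted p = 0.996, limma), which 0.878% of all tested genes showed, whereas both overlapped WT. Chrm3, with the highest mean count over the 15 embryos (409, against 370 for Chrm2), had 461 ± 99.1 in Tbr1 K228E/K228E, 364 ± 83.0 in Tbr1 +/K228E, and 401 ± 83.1 in WT mice, where Chrm2 had 405 ± 123.

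Wnt coreceptor and feedback genes were included because LYPD6 binds LRP6. All 14 were tested and 0 passed in any comparison (limma, Benjamini–Hochberg adjusted). Against WT, 13 were lower in Tbr1 K228E/K228E mice, with a median log2 fold change of −0.093, while 7 were higher and 7 lower in Tbr1 +/K228E mice (median −0.002). Without the 3 embryos with few meningeal transcripts, 8 lay above WT and 6 below among Tbr1 K228E/K228E embryos (median 0.01), and without Tbr1 K228E/K228E embryo 3 alone the median was −0.023, so no direction can be given for these genes. Lrp6 itself had 3413 ± 224 in WT, 3334 ± 330 in Tbr1 +/K228E, and 3332 ± 208 in Tbr1 K228E/K228E mice. Ctnnb1, the β-catenin gene, with the highest mean count of the group, had 30250 ± 2644 in WT and 29620 ± 1109 in Tbr1 K228E/K228E mice. The smallest p values belonged to Lrp5, the other coreceptor gene, with 739 ± 101 in Tbr1 K228E/K228E and 838 ± 92.3 in Tbr1 +/K228E mice (adjusted p = 0.996, limma). Nkd1, a feedback inhibitor of Wnt signaling, followed with 922 ± 184 and 1039 ± 105 in the same genotypes (adjusted p = 0.996, limma).

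The genes with the pattern most like Lypd6 were sought by Pearson correlation of log2 values over the 15 embryos, among 13542 genes whose mean was 50 or more. The highest were Prex1 (r = 0.853), Adamts3 (0.837), Cdh4 (0.796), Fv1 (0.794), and Zfp933 (0.787). Adamts3, a metalloproteinase gene, had means of 1669 ± 336 in WT, 1355 ± 156 in Tbr1 +/K228E, and 817 ± 87.9 in Tbr1 K228E/K228E mice. The lowest were Commd1 (−0.837), Tank (−0.778), Snx25 (−0.747), Mrpl39 (−0.738), and Nenf (−0.736). These correlations include the difference between genotypes that Lypd6 was chosen by and are given as a description. After each genotype's mean was subtracted, other genes were the most alike, namely Ugdh (0.908), Yy1 (0.87), Fam126a (0.857), Ythdf3 (0.85), and Rnf139 (0.849). The most negative r was of similar size (−0.896). Such values are the extremes of 13542 genes over 15 embryos, and they were not tested.

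Variation among embryos of the same genotype is separate from the comparison that chose Lypd6. Deviations of log2 values from the genotype mean were therefore compared between the 9 genes over the 15 embryos, with 100000 permutations within genotype and Benjamini–Hochberg adjustment over 36 pairs. Lypd1 deviated with Chrna3 (r = 0.848, adjusted permutation p = 0.0121, Spearman's rho = 0.789, adjusted p = 0.0268) and with Chrna5 (r = 0.841, adjusted permutation p = 0.0121, rho = 0.786, adjusted p = 0.0268). These 2 values of r were 0.709 and 0.729 without WT embryo 4 and Tbr1 +/K228E embryo 2, the embryos farthest from the median of Lypd1. The further positive pairs were Lynx1 with Chrna3 (0.824), Chrna3 with Chrna4 (0.809) and Chrna5 (0.797), and Lypd1 with Lynx1 (0.752), each with an adjusted permutation p under the threshold for r, while rho missed it for Chrna3 with Chrna4 (rho = 0.721, adjusted permutation p = 0.0542). Without the 2 embryos farthest from the median of the first gene, these 4 values of r lay between 0.638 and 0.744.

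No pair with Lypd6 passed in the positive direction. Of its 8 pairs, 1 passed, and it was negative, with Chrna4 (r = −0.668, adjusted permutation p = 0.0121, rho = −0.693, adjusted p = 0.0435). It was −0.696 without WT embryo 3 and Tbr1 K228E/K228E embryo 3, which are farthest from the median of Lypd6. Lypd6 and Lypd6b, the adjacent paralogs, had r = −0.234 (adjusted permutation p = 0.442).

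The same deviations were set against the mean log2 values of the 9 marker lists, giving 81 relations, of which 20 passed for r, 10 of them positive (permutations within genotype, Benjamini–Hochberg adjustment over 81). With the deep-layer glutamatergic markers, Chrna3 had r = −0.832 (adjusted permutation p = 0.00729, rho = −0.786, adjusted p = 0.023), Lynx1 −0.868 (adjusted permutation p = 0.0113, rho = −0.786), Lypd1 −0.745 (adjusted permutation p = 0.0116, rho = −0.821), Chrna4 −0.663 (adjusted permutation p = 0.0222, rho = −0.793), and Chrna5 −0.704 (adjusted permutation p = 0.0489, rho = −0.70). Embryos with a higher mean over this list than others of their genotype thus had less of these 5 transcripts. Not every member of the list followed its mean. Among WT embryos Foxp2 was highest in embryo 4 (4565), and its lowest value of all was in Tbr1 +/K228E embryo 2 (2756). Neurod6 ran the other way, with 3502 and 11280 in the same order. Without WT embryos 3 and 4, which are farthest from the median of the marker list, the 5 values of r above lay between −0.78 and −0.648.

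Lypd6 pointed the other way, with r = 0.595 (adjusted permutation p = 0.0964) and rho = 0.686 (adjusted permutation p = 0.0489), and r was 0.701 without the same 2 embryos. It passed by rank only, as did 5 further relations, namely Chrna3 with the Hox list (rho = 0.704, adjusted permutation p = 0.0463), Lynx1 with the peripheral sensory neuron list (rho = 0.704, adjusted permutation p = 0.0463), Lypd1 and Lynx1 with the skeletal muscle list (rho = 0.664 and 0.757, adjusted permutation p = 0.0489 and 0.0298), and Chrnb2 with the choroid plexus list (rho = −0.543, adjusted permutation p = 0.0489). Between genotypes, the mean log2 value of the deep-layer list was 11.59 in WT, 11.73 in Tbr1 +/K228E, and 11.61 in Tbr1 K228E/K228E mice, while the counts of Lypd6 were 585, 477, and 418. The members of that list were not uniform. Fezf2 had 2157 ± 561 in Tbr1 K228E/K228E and 1400 ± 479 in WT mice (log2 fold change 0.66, adjusted p = 1, limma), whereas 5 of the 7 members had lower values than in WT. Tle4 had 2979 ± 150 in Tbr1 K228E/K228E and 3595 ± 220 in Tbr1 +/K228E mice without overlap (log2 fold change −0.27, adjusted p = 0.593, limma). With the habenula and deep-layer lists as covariates, an alternative added after the data were seen, the Lypd6 log2 fold change against WT was −0.51 for Tbr1 K228E/K228E and −0.35 for Tbr1 +/K228E mice.

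**Figure D4:**
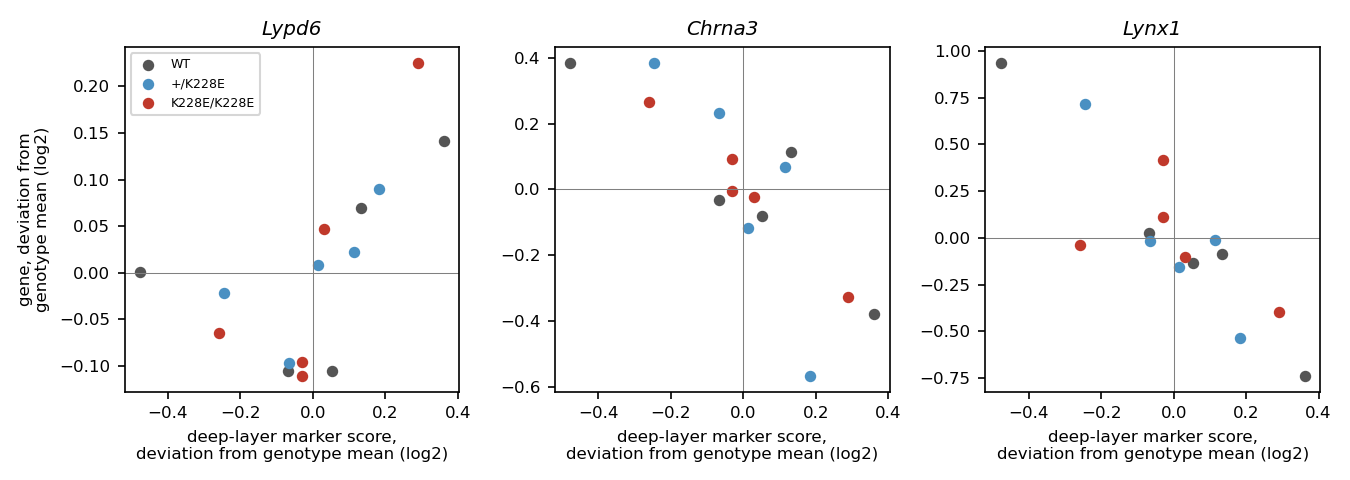
Deviation of Lypd6, Chrna3, and Lynx1 from the genotype mean (y axes, log2) against that of the deep-layer glutamatergic marker list (x axes, log2), with 1 point per embryo colored by genotype. Chrna3 and Lynx1 slope down (r = −0.832 and −0.868) and Lypd6 slopes up (r = 0.595), and the scales of the y axes differ between panels.

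With markers of more caudal or peripheral tissue the signs were opposite. Lynx1 deviated with the Hox list (r = 0.839, adjusted permutation p = 0.00729, rho = 0.836, adjusted p = 0.013), and r was 0.679 without WT embryo 4 and Tbr1 +/K228E embryo 1. With the motor neuron list, whose highest mean count was that of Isl1, a gene that striatal neurons also express, r was 0.841 for Lynx1, 0.816 for Chrna5, 0.794 for Chrna3, and 0.75 for Lypd1 (adjusted permutation p = 0.00891, 0.0115, 0.0119, and 0.0248). With the peripheral sensory neuron list, with Scn9a highest in mean count, r was 0.90 for Chrna5, 0.764 for Lypd1, and 0.748 for Chrna3 (adjusted permutation p = 0.00729, 0.0104, and 0.0113). Without the 2 embryos farthest from the median of each list, r lay between 0.727 and 0.858 for the former list and between 0.77 and 0.846 for the latter. The summed counts of these 2 lists were highest in WT embryo 4. The mean log2 value, which entered r, was also highest there for the motor neuron list (8.31). For the sensory list it was highest in Tbr1 K228E/K228E embryo 2 (6.46, against 6.39 in WT embryo 4). The part of tissue composition in these relations was not tested.

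With the habenula markers, among which Nhlh2 had the highest mean count, r was 0.811 for Chrna4 (adjusted permutation p = 0.0239) and 0.74 for Chrna3 (adjusted permutation p = 0.0315), and −0.517 for Lypd6 (adjusted permutation p = 0.0489). Without Tbr1 +/K228E embryos 2 and 5, which lie farthest from the median of that list, these were 0.517, 0.55, and −0.454, and rho did not pass for any of the 3 (adjusted permutation p = 0.0757, 0.0977, and 0.228). With the mean of the interneuron markers r was −0.731 for Chrna3, −0.677 for Chrna4, and −0.521 for Lypd6b (adjusted permutation p = 0.0116, 0.0119, and 0.0314). Without Tbr1 K228E/K228E embryos 2 and 3 these were −0.705, −0.772, and −0.626. Members of the interneuron list did not all vary together. Slc32a1 was highest in WT embryo 4 (2985) and lowest in Tbr1 +/K228E embryo 2 (1908), whereas Dlx1 had 3038 and 8620 there. The last relation was that of Chrnb2 with the meninges markers (r = −0.496, adjusted permutation p = 0.0184, rho = −0.496, adjusted p = 0.104).

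The effect of the genotype did not differ detectably between the sexes for any of the 8 genes other than Lypd6. Among 16 interaction terms, 3 females and 2 males per genotype, the lowest unadjusted p was 0.0731, for Chrnb2, and the lowest adjusted p was 0.747 (limma, Benjamini–Hochberg adjusted).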

How the data were processed

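RNA was extracted from the brains of 15 E16.5 embryos, and libraries were prepared with a TruSeq RNA kit and sequenced as paired reads. The authors estimated transcript abundance with Salmon 0.11.2 on GRCm38, summed it per gene through tximport in R 3.5.3, and divided counts by DESeq2 1.22.2 size factors, so that the deposited values are a normalized signal per gene and not whole counts. No count model was fitted, because whole reads could not be recovered. Of 19475 genes, 19452 were matched to GENCODE M21. Groups were taken from the sample labels, and no embryo was left out. Genotypes were compared with limma 3.58.1 under R 4.3.3 (eBayes with a trend) on log2(value + 1), with all 15 embryos in a single fit of 16507 genes whose mean was 5 or more and Benjamini–Hochberg adjustment at 0.05. Fold changes on this scale understate changes of low genes. The procedure was also run on simulated data, whose outcome is not used here. Marker lists and relations used permutations in Python 3.11.15. Named genes are the members, Tbr1, the 2 genes with the smallest p and the highest mean count in each gene list other than the marker lists, tested genes within 1 Mb of Lypd6, and those most alike to Lypd6. Marker genes and a few values beside these were named after they were seen. Members and lists were chosen with earlier results of these data known. The alternatives were other pseudocounts, filters, scalings, covariates, nulls, a replicate block, and leaving out embryos. Within a genotype, r between embryos was 0.971 to 0.988.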

Additional observations from a re-analysis of the deposited data

Results flagged for a closer look

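Of 27 groups of 5 embryos (9 genes in 3 genotypes), 1 held an embryo far from the rest. Chrnb2 was 3583 in Tbr1 K228E/K228E embryo 3, while the other 4 embryos of that genotype lay between 3408 and 3454, so that the gap took up 0.740 of the range (critical value 0.71). Chance alone marks about 1 in 20 groups in this way, and Chrnb2 had the narrowest range of the 9 genes.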

How the results depend on the processing

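Lypd6 kept its sign in every alternative run, with log2 fold changes from −0.544 to −0.452 (Tbr1 K228E/K228E against WT), −0.346 to −0.256 (Tbr1 +/K228E against WT), and −0.253 to −0.161 (between mutants). It was chosen by its lower level in these embryos, and every mutant embryo lay below every WT embryo. Leaving out embryos therefore could not reverse its sign against WT, so the kept sign is no test of Lypd6. The other 8 genes gave 720 alternative values, of which 0 passed the threshold and 62 changed sign. Genes called between Tbr1 K228E/K228E and WT numbered 12 when those genotypes were fitted alone, 42 with an empirical null, and 44 with habenula and deep-layer scores as covariates (chosen after seeing the data), against 21, and 12 to 22 without a replicate, with 12 or 13 without WT 1 or 2 or Tbr1 K228E/K228E 3 or 4. Between the mutants they numbered 31 with those scores, against 13, and 6 to 17 without a replicate, with at most 8 when any mutant embryo was left out. Between Tbr1 +/K228E and WT, 1 gene, Tbr1, was called with those scores and 0 otherwise. Without the 3 embryos lowest in meninges markers (chosen after seeing the data), 7, 0, and 0 genes were called in limma (415, 595, and 492 at an unadjusted p under 0.05) for Tbr1 K228E/K228E against WT, Tbr1 +/K228E against WT, and between mutants. Embryo numbers are shared by different animals, and the labels do not say that they pair them. Deviations of same-numbered embryos correlated with r from −0.232 to 0.506 over all comparisons. Between Tbr1 K228E/K228E and WT, r was 0.357, 0.024, 0.506, 0.158, and 0.169 in the order of the numbers. With the replicate block 16, 0, and 2 genes were called in the order Tbr1 K228E/K228E against WT, Tbr1 +/K228E against WT, and between mutants.

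Sign changes, in log2 units, were small, and their cause was not tested. With Hox and meninges scores as covariates, values against WT became 0.01 (Lypd6b), 0.067 (Lypd1), and 0.053 (Chrna3) in Tbr1 K228E/K228E and 0.001 (Lypd6b) and 0.09 (Lypd1) in Tbr1 +/K228E mice, and between mutants −0.023 (Lypd1), 0.036 (Lynx1), and −0.011 (Chrnb2). With habenula and deep-layer scores they became 0.016 (Lypd6b), 0.017 (Lypd1), 0.009 (Chrna3), and 0.009 (Chrna4) in Tbr1 K228E/K228E, 0.021 (Lypd6b), 0.14 (Lypd1), 0.011 (Chrna3), and 0.076 (Chrna5) in Tbr1 +/K228E mice, and −0.005 (Lypd6b), −0.123 (Lypd1), and −0.002 (Chrna3) between mutants. Without the 2 embryos with the highest Hox sums (chosen after seeing the data) they became 0.003 (Lypd6b), 0.075 (Lypd1), and 0.03 (Chrna3) in Tbr1 K228E/K228E mice and 0.169 (Lynx1) between mutants. Without the 3 embryos lowest in meninges markers, Chrna7 became 0.006 in Tbr1 +/K228E mice, and between mutants values became −0.003 (Lypd1), 0.084 (Lynx1), and 0 (Chrnb2). Quantile normalization gave 0.001 (Lypd6b, Tbr1 K228E/K228E against WT) and, between mutants, −0.007 (Lypd1) and 0.006 (Lynx1), and the upper quartile gave −0.001 (Lypd1, between mutants). Leaving out a replicate spanned 0 for Lypd6b (−0.073 to 0.003), Lypd1 (−0.119 to 0.075), Chrna3 (−0.16 to 0.03), and Chrna5 (−0.116 to 0.204) in Tbr1 K228E/K228E mice, for Lypd1 (−0.111 to 0.13), Chrna5 (−0.308 to 0.036), Chrna7 (−0.117 to 0.006), and Chrnb2 (−0.02 to 0.042) in Tbr1 +/K228E mice, and between mutants for Lypd6b (−0.03 to 0.14), Lypd1 (−0.162 to 0.085), Lynx1 (−0.145 to 0.169), Chrna3 (−0.011 to 0.228), Chrna4 (−0.067 to 0.256), and Chrnb2 (−0.025 to 0.037). The part of depth in the spread of low genes was not tested.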
